A study of Mus musculus with 8 samples.

Results

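The genes of glycolysis, of glucose entry and of lactate and pyruvate transport were followed in fibroadipogenic progenitors (FAPs), the mesenchymal cells between muscle fibres that give rise to fibroblasts and fat cells. The 33 genes were taken by symbol from a count table of 24419 rows, and all 33 were present. Of these, 31 had enough reads to be tested, while Aldoc and Fbp2 did not. In 2 of the 3 libraries from mice with a scrambled-control tumour, scrambled 1 and 3, Slc2a1, Slc2a4, Slc16a1 and Pfkfb3 stood above all sham and knockdown libraries, and 9 of the 16 tested core enzymes, Hk1, Aldoa and Pkm among them, stood below all of these. These 2 libraries stood apart across the whole transcriptome: both were above all sham and knockdown libraries for 30.1% of all tested genes and below all of them for 32.3%, so such counts are not particular to the members. The remaining scrambled library, scrambled 2, lay within the range of the sham and knockdown libraries for 19 of the 31 members and outside it for 12, beside 43.3% of all genes outside it. No member passed the adjusted threshold of the edgeR fit of all 8 libraries in any comparison.

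Glycolysis turns glucose into pyruvate in the cytosol. Glucose enters through GLUT proteins (Slc2a genes), is trapped by hexokinases, and is committed at phosphofructokinase, whose activity follows fructose-2,6-bisphosphate, a regulator made and removed by the bifunctional PFKFB enzymes. Pyruvate then either enters mitochondria through the carrier formed by Mpc1 and Mpc2 or is reduced to lactate by lactate dehydrogenase and leaves the cell through monocarboxylate transporters such as MCT1 (Slc16a1) and MCT4 (Slc16a3). Many of these genes are known targets of hypoxia-inducible factor and of Myc, and GLUT4 (Slc2a4) is the insulin-responsive transporter of muscle fibres and fat cells.

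The study examined FAPs in a mouse model of the muscle wasting that comes with pancreatic cancer. FAPs were sorted from the hind limb muscle of male C57BL/6J mice by SCA-1 and a Hoechst DNA dye, leaving out endothelial (CD31), blood (CD45) and muscle stem cells (α7-integrin) and cells that took up propidium iodide. Sham mice (n = 2) had surgery without tumour cells. Scrambled mice (n = 3) carried in the pancreas KPCY cells, a mouse pancreatic tumour line, transduced with a lentiviral vector for a scrambled sequence, and knockdown mice (n = 3) carried KPCY cells whose vector inhibited miR-27a-3p. Both tumour lines had been selected with 2 µg/mL puromycin for 7 days, and the cells were implanted in 50 µL. The vectors were thus in the tumour cells and not in the FAPs sequenced, and mRNA libraries of FAPs give no check of miR-27a-3p in the tumours. The sources used here give no age, time after surgery, sort day or library batch. The labels call the libraries biological replicates.

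Libraries held 15647436 to 28340450 counts, and the 33 members took 0.167% to 0.233% of them. On the first principal component of all tested genes, which held 61.1% of the variance, scrambled 1 and scrambled 3 lay at 115 and 92, scrambled 2 at -12.3 and the other 5 libraries between -47.7 and -32.3. All 12 progenitor markers were detected in every library, Pdgfra at 1256 to 1588 CPM (counts scaled to the library's total and corrected for its composition by TMM). In scrambled 1 and 3, however, 8 of the 12 were below all sham and knockdown libraries and 1, Dcn, was above them. Cd34 stood at 213 and 241 CPM in scrambled 1 and 3 against 1805 to 2250 in sham and knockdown, Col3a1 at 990.1 and 974 against 13185 to 22477, and Pi16 at 295 and 189 against 2102 to 2974. Their summed level, 76569 to 107283 CPM, is carried mainly by Gsn and Dcn and does not show this. Muscle fibre markers, 15 of 15 detected and 14 tested, summed to 39.7 and 83.4 CPM in sham 1 and 2, to 98.1, 111 and 351 in scrambled 1, 2 and 3, and to 59.8 to 75.2 in knockdown. Scrambled 3 had the highest fibre sum, and 6 of the 15 fibre markers were above all sham and knockdown libraries in both scrambled 1 and 3. Mature adipocyte markers summed to at most 8.56 CPM in any library, with Lep at 0 throughout. Schwann cell markers summed to 34.8 and 35.7 CPM in sham 1 and 2, to 92.1, 50.97 and 79.6 in scrambled 1, 2 and 3, and to 60.97 to 68.9 in knockdown, and red blood cell markers to 0.506 and 1.67, to 7.05, 4.65 and 19.02, and to 1.17 to 3.94. The red blood cell sum is nearly all Alas2 (18.01 CPM in scrambled 3), while 4 of the 6 markers, the globin genes, were at 0 in every library. In scrambled 1 and 3, 1 of the 6 Schwann cell markers, Mbp, was above all sham and knockdown libraries, and 2, S100b and Ngfr, were below. Of the 8 endothelial markers, 4 were above, among them Pecam1 (73.03 and 56.2 CPM against at most 48.98), and 1, Tek, was below. None of the marker genes was called in any comparison, and the part of these markers in the results below was not tested. In RNA from pooled cells, fewer cells of a type and less RNA per cell cannot be told apart.

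Across the members, no gene was called (edgeR quasi-likelihood test, adjusted p under 0.05) in scrambled against sham, where 1.58% of all 13646 tested genes were called. None was called in knockdown against scrambled, where 0.0513% of all genes were, and none in knockdown against sham, where 0.00733% were. At an unadjusted p under 0.05, 17 of 31 members differed between scrambled and sham, against 29.2% of all genes. The count was 9 of 31 between knockdown and scrambled, against 32.4%, and 0 of 31 between knockdown and sham, against 2.37%. Groups did not overlap for 16 members in scrambled against sham (7 higher and 9 lower), against 41% of all genes. They did not overlap for 8 members in knockdown against scrambled (6 higher, 2 lower), against 34.2%, and for 9 in knockdown against sham (4 higher, 5 lower), against 27.3%. The median log2 fold change of the members was -0.06 in scrambled against sham, 0.03 in knockdown against scrambled and -0.11 in knockdown against sham, beside 0.00, 0.01 and -0.00 over all genes. The first and second comparisons share the scrambled libraries, so their opposite signs are not independent of each other.

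The count of calls depended on scrambled 2 and on the test used. Without scrambled 2, 21 members were called against sham, 8 higher and 13 lower, while 51% of all tested genes were called too. In knockdown against scrambled, 10 were then called higher and 8 lower, with 54% of all genes called. DESeq2, a second count test, with all libraries called 6 members higher and 3 lower in scrambled against sham (15.2% of all genes) and 1 higher and 5 lower in knockdown against scrambled (17%). With scrambled 2 as the only scrambled library, Pfkl was called higher and Pfkfb4 lower against sham (3.55% of all genes called), in a fit whose spread comes from sham and knockdown alone and that assumes the lone library to vary like them. Scrambled 1 and 3 both lay outside the range of the 5 sham and knockdown libraries, on the same side, for 20 of 31 members, 8 of them higher and 12 lower, against 62.4% of all genes, a share near that of the members. The median within-group SD of log2 CPM over members was 0.37 in the scrambled group, 0.16 in sham and 0.17 in knockdown, beside 0.45, 0.17 and 0.16 over all genes.

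**Figure D1:**
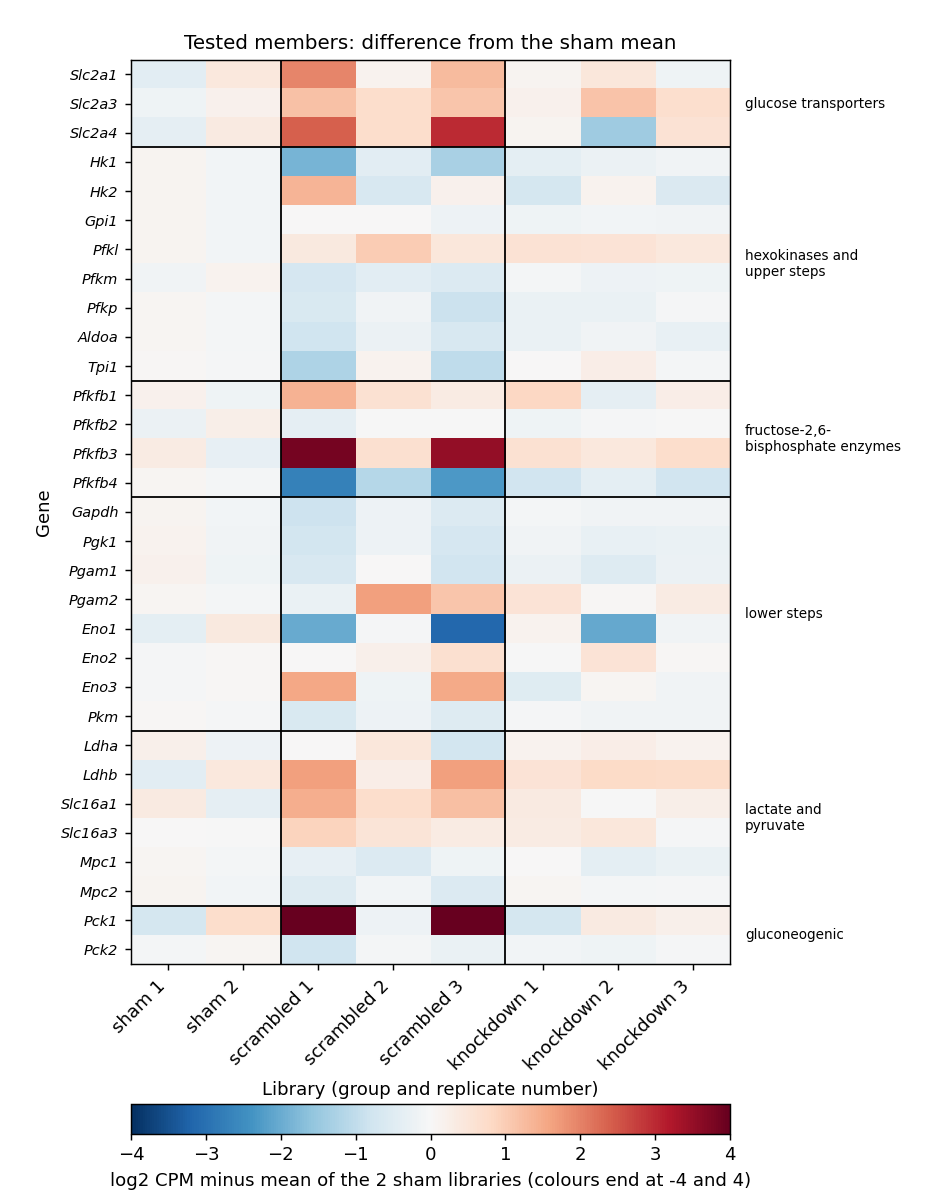
Each row is 1 of the 31 tested members, ordered by role, and each column 1 library, with colour for the log2 CPM minus the mean of the 2 sham libraries (red higher, blue lower, colours ending at -4 and 4). Scrambled 1 and 3 carry the strongest colours, red for transporters, Pfkfb3, Eno3, Ldhb and Pck1 and blue for most enzymes, while scrambled 2 and the knockdown libraries are close to sham for most rows.

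Per kilobase of exon, Aldoa, which splits fructose-1,6-bisphosphate, had the highest level of the members, with 181 ± 13.4 RPKM (CPM per kilobase of exon) in sham (mean ± SD, n = 2), 124 ± 25.6 in scrambled (n = 3) and 154 ± 7.84 in knockdown (n = 3). Pkm, the pyruvate kinase of most tissues, followed with 61.9 ± 2.23, 45.8 ± 6.77 and 57.5 ± 2.58 RPKM. Ldha, the lactate dehydrogenase subunit that dominates in glycolytic tissue, came next with 46.9 ± 9.25, 46.3 ± 17.95 and 52.6 ± 2.39 RPKM. Gapdh, the glyceraldehyde-3-phosphate dehydrogenase, was close to Ldha at 56.7 ± 6.45, 39.9 ± 8.69 and 51.8 ± 1.59 RPKM, and the order of these neighbours lies within their spread. Tpi1, triose phosphate isomerase, and Gpi1, glucose-6-phosphate isomerase, had means over all libraries of 36.97 and 29.6 RPKM. The glucose transporters were far lower, with means over all libraries of 6.104 RPKM for Slc2a1, 1.505 for Slc2a3 and 0.807 for Slc2a4.

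Some of these levels are uncertain because near-identical copies exist. Of the 59-base stretches of the longest transcript, 59 bases being the length of 1 read, 81.7% in Gapdh, 69.8% in Eno1, 67.8% in Pgk1, 41.2% in Pgam1 and 28.6% in Pkm occur in other annotated genes. The share was 16.9% to 27.9% in Mpc1, Pfkfb2, Ldhb, Gpi1 and Pfkp, 10.9% in Ldha and 7.65% in Aldoa. Eno1, the enolase of most non-muscle cells, was counted at only 0.815 CPM in sham, and the gene that shares most of its stretches is Eno1b. The sources used here do not say how the authors counted reads with several matches, so these levels are uncertain, and that of Eno1 is not read further. No stretch was shared for Slc2a3, Slc2a4, Hk2, Pfkl, Pfkm, Pfkfb1, Pfkfb4, Eno2, Eno3, Slc16a1, Slc16a3 and Pck1, and 0.0843% of stretches for Pfkfb3.

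The glucose transporters all had higher means in scrambled than in sham and knockdown FAPs, with a median log2 fold change of 1.24 for the 3 genes against sham. Their summed level was 21.7 ± 6.96 CPM in sham, 52.1 ± 23.3 in scrambled and 26.997 ± 5.55 in knockdown (mean ± SD, n = 2, 3 and 3). Slc2a1 (GLUT1, the basal transporter of most cells; chr4:119108711-119137983, GRCm38) stood at 10.1 and 17.8 CPM in sham 1 and 2, 52.03, 14.6 and 31.99 in scrambled 1, 2 and 3, and 14.5, 18.2 and 11.98 in knockdown 1, 2 and 3. Every other library was below scrambled 1 and 3, and scrambled 2 was inside the range of sham. The log2 fold change was 1.24 ± 0.49 (SE) against sham and -1.15 ± 0.43 for knockdown against scrambled, with edgeR adjusted p of 0.145 and 0.114. Slc2a1 was singled out after its values were seen, as were Hk2, Pfkm, Pfkl, Tpi1, Gapdh, Eno3, Ldhb and Pck1 below.

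Slc2a3 (GLUT3, a high-affinity transporter; chr6:122727809-122801640) stood at 5.95 and 7.48 CPM in sham 1 and 2, 15.2, 10.8 and 14.6 in scrambled 1, 2 and 3, and 7.596, 14.8 and 10.7 in knockdown 1, 2 and 3. Each scrambled library was above both sham libraries, and so was each knockdown library, with knockdown 2 as high as scrambled 1 and 3. On the log2 scale the change was 1.01 ± 0.34 for scrambled against sham (edgeR adjusted p = 0.111) and 0.71 ± 0.34 for knockdown against sham (edgeR adjusted p = 1). Between knockdown and scrambled it was -0.30 ± 0.28 (edgeR adjusted p = 0.468), with overlapping groups. Slc2a4 (chr11:69942539-69948188) was near the limit of detection, at 0.822 and 1.39 CPM in sham 1 and 2, 6.11, 1.82 and 9.13 in scrambled 1, 2 and 3, and 1.18, 0.335 and 1.66 in knockdown 1, 2 and 3. The scrambled libraries were above all others, scrambled 2 only barely. Its log2 fold change was 2.30 ± 0.80 against sham and -2.33 ± 0.67 for knockdown against scrambled, with edgeR adjusted p of 0.118 and 0.079. Summed fibre markers were highest in scrambled 3, where Slc2a4 was highest too. They were 98.1 and 111 CPM in scrambled 1 and 2. Between these, 7 of the 15 single markers were higher in scrambled 1, as Slc2a4 was, among them Atp2a1 (19.4 and 11.7 CPM) and Tnnt3 (25.7 and 17.6). The rest were lower in scrambled 1, among them Myh4 (2.55 and 9.38 CPM), Ckm (9.48 and 17.8) and Acta1 (14.1 and 22.7). Adipocyte markers, of cells that also use GLUT4, summed to 2.78, 2.54 and 8.56 CPM in scrambled 1, 2 and 3, and the part of either cell type in Slc2a4 was not tested.

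Of the enzymes from hexokinase to triose phosphate isomerase, 6 of 8 tested had a lower mean in scrambled than in sham FAPs, with a median log2 fold change of -0.53. The exceptions were Hk2 and Pfkl. Hk1 (the hexokinase found in most tissues, bound to mitochondria; chr10:62268855-62379908) stood at 129 and 111 CPM in sham 1 and 2, 32.5, 88.1 and 48.2 in scrambled 1, 2 and 3, and 91.4, 101 and 109 in knockdown 1, 2 and 3. All scrambled libraries were below all others, scrambled 2 by a small margin and scrambled 1 and 3 by a wide one. The fitted log2 change was -1.09 ± 0.34 against sham and 0.84 ± 0.31 for knockdown against scrambled (edgeR adjusted p = 0.103 and 0.115). Without scrambled 2 it was -1.57 ± 0.19 against sham, with an edgeR adjusted p of 4.24e-05, in a range of 4.24e-05 to 0.424 over the 18 alternatives.

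Hk2, the inducible hexokinase of insulin-sensitive and fast-growing tissue (chr6:82725025-82774454), stood at 38.97 and 33.2 CPM in sham 1 and 2, 91.5, 23.1 and 40.7 in scrambled 1, 2 and 3, and 21.9, 39.2 and 24.1 in knockdown 1, 2 and 3. Only scrambled 1 was far above the other groups, while scrambled 2 was below both sham libraries. As a share of the summed RPKM of Hk1 and Hk2, Hk2 made up 30.2 and 30.04% in sham 1 and 2, 80.1, 27.3 and 54.7 in scrambled 1, 2 and 3, and 25.5, 35.6 and 24.04 in knockdown 1, 2 and 3. By this measure Hk2 was the larger of the pair in scrambled 1 and 3, and the smaller in the other 6 libraries. In scrambled 3 this depends on the length used, since before division by length Hk1 was higher (48.2 against 40.7 CPM). The exon length used for Hk1 was 8532 bases, while its longest transcript has 4278. Hk2 itself had a log2 fold change of 0.52 ± 0.50 against sham (edgeR adjusted p = 0.481).

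The phosphofructokinase subunits did not share a direction. Pfkm (the muscle-type subunit; chr15:98092589-98132451) stood at 44.5 and 54.6 CPM in sham 1 and 2, 30.99, 36.6 and 33.9 in scrambled 1, 2 and 3, and 47.1, 42.8 and 44.1 in knockdown 1, 2 and 3, with each scrambled library below each sham and knockdown library. Its log2 fold change was -0.55 ± 0.17 against sham and 0.40 ± 0.15 for knockdown against scrambled (edgeR adjusted p = 0.0998 and 0.121). Summed fibre markers were higher in each scrambled library than in any other. Pfkp, the platelet-type subunit, had a log2 fold change of -0.51 ± 0.22 against sham. Pfkl (the liver-type subunit; chr10:77986947-78010083) was at 7.65 and 6.53 CPM in sham 1 and 2, 9.32, 14.5 and 9.76 in scrambled 1, 2 and 3, and 10.7, 10.3 and 9.45 in knockdown 1, 2 and 3, so that every tumour-bearing mouse was above both sham mice and the highest value was that of scrambled 2. Its log2 fold change was 0.66 ± 0.29 for scrambled and 0.52 ± 0.29 for knockdown, both against sham (edgeR adjusted p = 0.165 and 1).

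Aldoa (chr7:126795234-126800751) stood at 555 and 499 CPM in sham 1 and 2, 299.9, 444 and 339 in scrambled 1, 2 and 3, and 436, 474 and 432 in knockdown 1, 2 and 3. The scrambled libraries were below both sham libraries, the knockdown libraries were between sham and scrambled 1 and 3, and scrambled 2 was inside the knockdown range. In the fit, the log2 fold change was -0.55 ± 0.20 for scrambled against sham and 0.31 ± 0.18 for knockdown against scrambled (edgeR adjusted p = 0.127 and 0.251). Tpi1 (chr6:124810586-124814296) stood at 117 and 111 CPM in sham 1 and 2, 48.04, 125 and 56.2 in scrambled 1, 2 and 3, and 114, 135 and 107 in knockdown 1, 2 and 3. Scrambled 2 exceeded both sham libraries, and scrambled 1 and 3 had less than any other library. Gpi1 differed little, from 176 to 216 CPM over the 8 libraries. Aldoc, the brain-type aldolase, had 0 reads in sham, 17 in the 3 scrambled and 4 in the 3 knockdown libraries.

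The PFKFB enzymes, which set fructose-2,6-bisphosphate, held the members with the smallest adjusted p against sham and with opposite directions. Pfkfb3 (the isoform with the highest kinase-to-phosphatase ratio; chr2:11471433-11554077) stood at 18.7 and 12.1 CPM in sham 1 and 2, 212, 23.3 and 174 in scrambled 1, 2 and 3, and 22.99, 19.98 and 24.5 in knockdown 1, 2 and 3. Scrambled 1 and 3 were far above all other libraries, while scrambled 2 was above both sham libraries but inside the knockdown range. The fold change on the log2 scale was 3.15 ± 0.78 against sham, or 8.903-fold, with an edgeR adjusted p of 0.0699. It was -2.60 ± 0.64 for knockdown against scrambled, with an edgeR adjusted p of 0.0727. Without scrambled 2 the value against sham was 3.67 ± 0.21 (edgeR adjusted p = 3.65e-07, range 3.65e-07 to 0.406 over the 18 alternatives). With scrambled 2 as the only scrambled library it was 0.62. Pfkfb3 was therefore the tested member with the largest change apart from Pck1, and its size rested on scrambled 1 and 3.

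Pfkfb4 (chr9:108991778-109032228), another isoform of the family, stood at 22.3 and 20.3 CPM in sham 1 and 2, 3.21, 9.64 and 4.28 in scrambled 1, 2 and 3, and 12.4, 16.4 and 12.6 in knockdown 1, 2 and 3. The 3 groups did not overlap: sham was highest, knockdown lay between, and scrambled was lowest. The log2 fold change was -1.89 ± 0.40 for scrambled against sham, 1.26 ± 0.37 for knockdown against scrambled and -0.63 ± 0.39 for knockdown against sham. The edgeR adjusted p were 0.0547, 0.0816 and 1. Against sham, 5 of the 18 alternatives called Pfkfb4 lower in scrambled FAPs, 1 of them the fit with a lone scrambled library, whose own spread is not known (adjusted p 1.61e-05 to 0.397 over the alternatives). In all 6 tumour-bearing mice Pfkfb4 was below both sham mice, and its log2 fold change against sham was negative under all 18 alternatives in both groups. Pfkfb1, the liver and muscle isoform (chrX:150588229-150643878), was barely detected, at 0.443 and 0.335 CPM in sham 1 and 2, 1.18, 0.634 and 0.504 in scrambled 1, 2 and 3, and 0.77, 0.279 and 0.481 in knockdown 1, 2 and 3. Pfkfb2, the heart isoform, ranged from 27.5 to 42.01 CPM with no order by group.

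The balance within the family was taken from levels per length. As a share of the summed RPKM of Pfkfb1 to Pfkfb4, Pfkfb3 made up 21.9 and 13.7% in sham 1 and 2, 85.5, 30.7 and 79.7 in scrambled 1, 2 and 3, and 30.2, 24.6 and 30.2 in knockdown 1, 2 and 3. The share of Pfkfb4 was 40.6 and 35.8% in sham 1 and 2, 2.01, 19.7 and 3.04 in scrambled 1, 2 and 3, and 25.3, 31.2 and 24.04 in knockdown 1, 2 and 3. Pfkfb4 was thus the larger of the pair in sham 1 and 2, and Pfkfb3 in all scrambled libraries, by a wide margin in scrambled 1 and 3. In knockdown the pair had similar shares, with means of 28.305% ± 3.24 (SD, n = 3) for Pfkfb3 and 26.8% ± 3.81 for Pfkfb4. This likeness depends on the exon lengths used, 7561 bases for Pfkfb3 and 4875 for Pfkfb4. Before division by length Pfkfb3 was higher, at 22.99, 19.98 and 24.5 CPM against 12.4, 16.4 and 12.6 in knockdown 1, 2 and 3. The summed level of the 4 genes was 71.4 and 74.7 CPM in sham 1 and 2, 244, 68.6 and 214 in scrambled 1, 2 and 3, and 67.4, 70.7 and 72.4 in knockdown 1, 2 and 3.

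**Figure D2:**
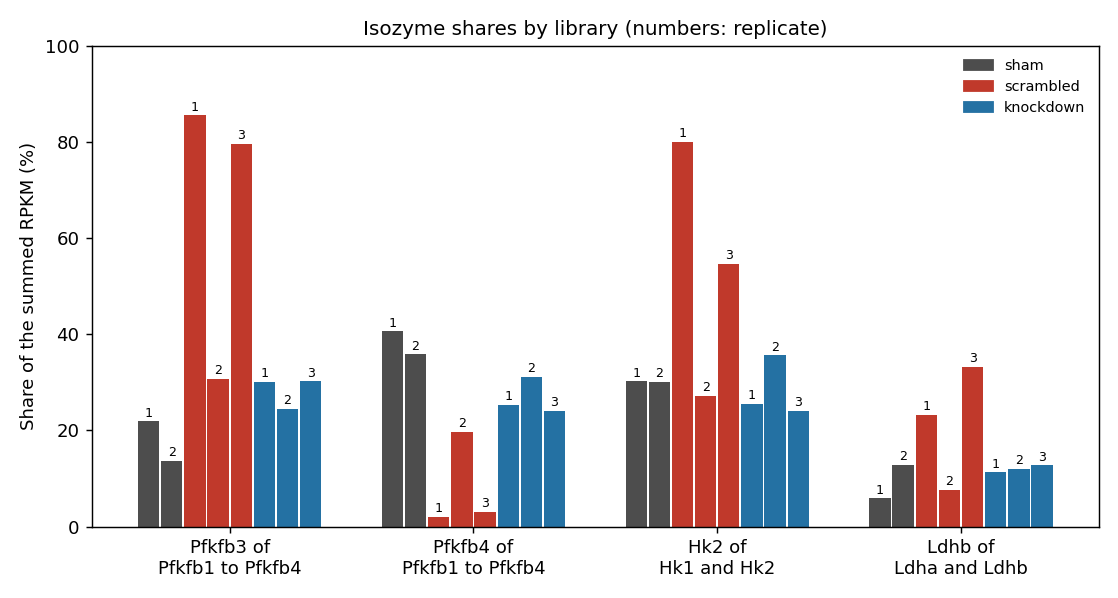
Bars give the share (%) of 1 isozyme in the summed RPKM of its family for each library, coloured by group and numbered by replicate, from an axis that starts at 0. Pfkfb3 and Hk2 reach 85.5% and 80.1% in scrambled 1, and scrambled 2 lies with the sham and knockdown libraries for Hk2 and Ldhb.

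The promoters of this pair are shown because Pfkfb3 and Pfkfb4 differed from sham in opposite directions, and were searched for letters that hypoxia-inducible factor and Myc family proteins are known to read. RefSeq promoters (GRCm38.p6, 300 bases around each start, most of them before it) were found for 31 of the 33 members, 49 promoters in all, and the search covered both strands for ACGTG, the core of the hypoxia response element, and for CACGTG, an E-box, which holds ACGTG on each strand and so counts as a pair of overlapping cores. The core was in 20 of 49 member promoters (40.8%, from 16 members), beside 19.6% of all 32851 promoters of the table. Overlapping promoters can count the same site again, as in Aldoa. The promoters compared were not matched for their content of G and C bases, so these shares do not show an enrichment. The E-box was in 6 of 49 (12.2%), beside 7.15% of all. The glucocorticoid half-site AGAACA was in 10 of 49 (20.4%), beside 19% of all. Both Pfkfb3 promoters (minus strand) hold the core, and that of Pfkfb4 (plus strand) holds none. Capitals mark the cores:
Pfkfb3, chr2:11502041-11502340: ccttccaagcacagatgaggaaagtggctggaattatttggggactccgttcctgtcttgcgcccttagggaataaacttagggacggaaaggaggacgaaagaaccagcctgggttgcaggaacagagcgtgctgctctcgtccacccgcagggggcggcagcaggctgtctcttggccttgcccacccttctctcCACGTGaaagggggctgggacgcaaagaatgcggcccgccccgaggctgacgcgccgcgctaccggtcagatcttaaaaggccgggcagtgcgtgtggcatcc
Pfkfb3, chr2:11553880-11554179: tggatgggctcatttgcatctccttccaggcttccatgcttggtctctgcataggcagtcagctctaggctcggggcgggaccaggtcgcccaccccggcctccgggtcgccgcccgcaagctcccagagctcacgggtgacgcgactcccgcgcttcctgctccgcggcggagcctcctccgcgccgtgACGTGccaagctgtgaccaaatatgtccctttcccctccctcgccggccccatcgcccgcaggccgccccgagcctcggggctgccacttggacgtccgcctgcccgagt
Pfkfb4, chr9:108991652-108991951: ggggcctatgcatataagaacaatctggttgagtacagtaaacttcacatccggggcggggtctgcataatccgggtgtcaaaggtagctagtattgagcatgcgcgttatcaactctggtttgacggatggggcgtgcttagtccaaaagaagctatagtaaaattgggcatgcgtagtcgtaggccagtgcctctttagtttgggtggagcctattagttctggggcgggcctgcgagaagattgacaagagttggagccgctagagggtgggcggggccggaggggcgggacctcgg
Counted from the start site as position 0, the E-box of the first Pfkfb3 promoter begins at -53 and the core of the second at -60. A match of letters is a description of the sequence, and no binding was measured.

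From glyceraldehyde-3-phosphate dehydrogenase to pyruvate kinase, 5 of 8 members had lower means in scrambled than in sham FAPs, with a median log2 fold change of -0.43. Pkm (chr9:59656368-59679375) stood at 318 and 302 CPM in sham 1 and 2, 203, 267 and 218 in scrambled 1, 2 and 3, and 302, 280.1 and 280.2 in knockdown 1, 2 and 3. Every scrambled library was below every sham and knockdown library, and scrambled 2 was the nearest to them. Its log2 fold change was -0.43 ± 0.17 against sham and 0.33 ± 0.16 for knockdown against scrambled (edgeR adjusted p = 0.147 and 0.18). Gapdh (chr6:125161715-125166467) followed the same order at 253 and 215 CPM in sham 1 and 2, 131, 203 and 160.1 in scrambled 1, 2 and 3, and 222, 211 and 210.2 in knockdown 1, 2 and 3, within the limit that most of its stretches are shared with pseudogenes and other loci. Pgk1, phosphoglycerate kinase, and Pgam1, phosphoglycerate mutase, had log2 fold changes of -0.52 ± 0.22 and -0.44 ± 0.28 against sham.

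Eno3, the muscle-type enolase (chr11:70657202-70662513), went the other way, at 11.3 and 11.9 CPM in sham 1 and 2, 34.05, 10.3 and 32.997 in scrambled 1, 2 and 3, and 8.21, 12.3 and 10.5 in knockdown 1, 2 and 3. Scrambled 1 and 3 held about the same high level, and scrambled 2 was below both sham libraries. On the log2 scale the change was 1.15 ± 0.47 against sham and -1.32 ± 0.41 for knockdown against scrambled (edgeR adjusted p = 0.15 and 0.0874). The summed fibre markers were 98.1 CPM in scrambled 1, 111 in scrambled 2 and 351 in scrambled 3, and 6 of the 15 single markers were, like Eno3, higher in both scrambled 1 and 3 than in scrambled 2. Their part in the level of Eno3 was not tested. Pgam2, the muscle-type mutase, had means of 0.536 ± 0.0475 CPM in sham and 1.197 ± 0.737 in scrambled. Eno2, the neuronal enolase, ranged from 13.7 to 22.1 CPM.

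Summed over the 17 enzymes of the upper and lower steps, the level was 1927 and 1746 CPM in sham 1 and 2, 1235, 1623 and 1256 in scrambled 1, 2 and 3, and 1625, 1684 and 1621 in knockdown 1, 2 and 3. Group means were 1836 ± 128 in sham, 1371 ± 218 in scrambled and 1643 ± 35.4 in knockdown. Scrambled 1 and 3 were thus the lowest libraries, scrambled 2 was level with knockdown 1 and 3, and sham was highest. The sum is carried mainly by Aldoa, Pkm, Gapdh and Gpi1, and low-level isozymes such as Hk2 and Eno3 that were higher in scrambled 1 and 3 add little to it.

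**Figure D3:**
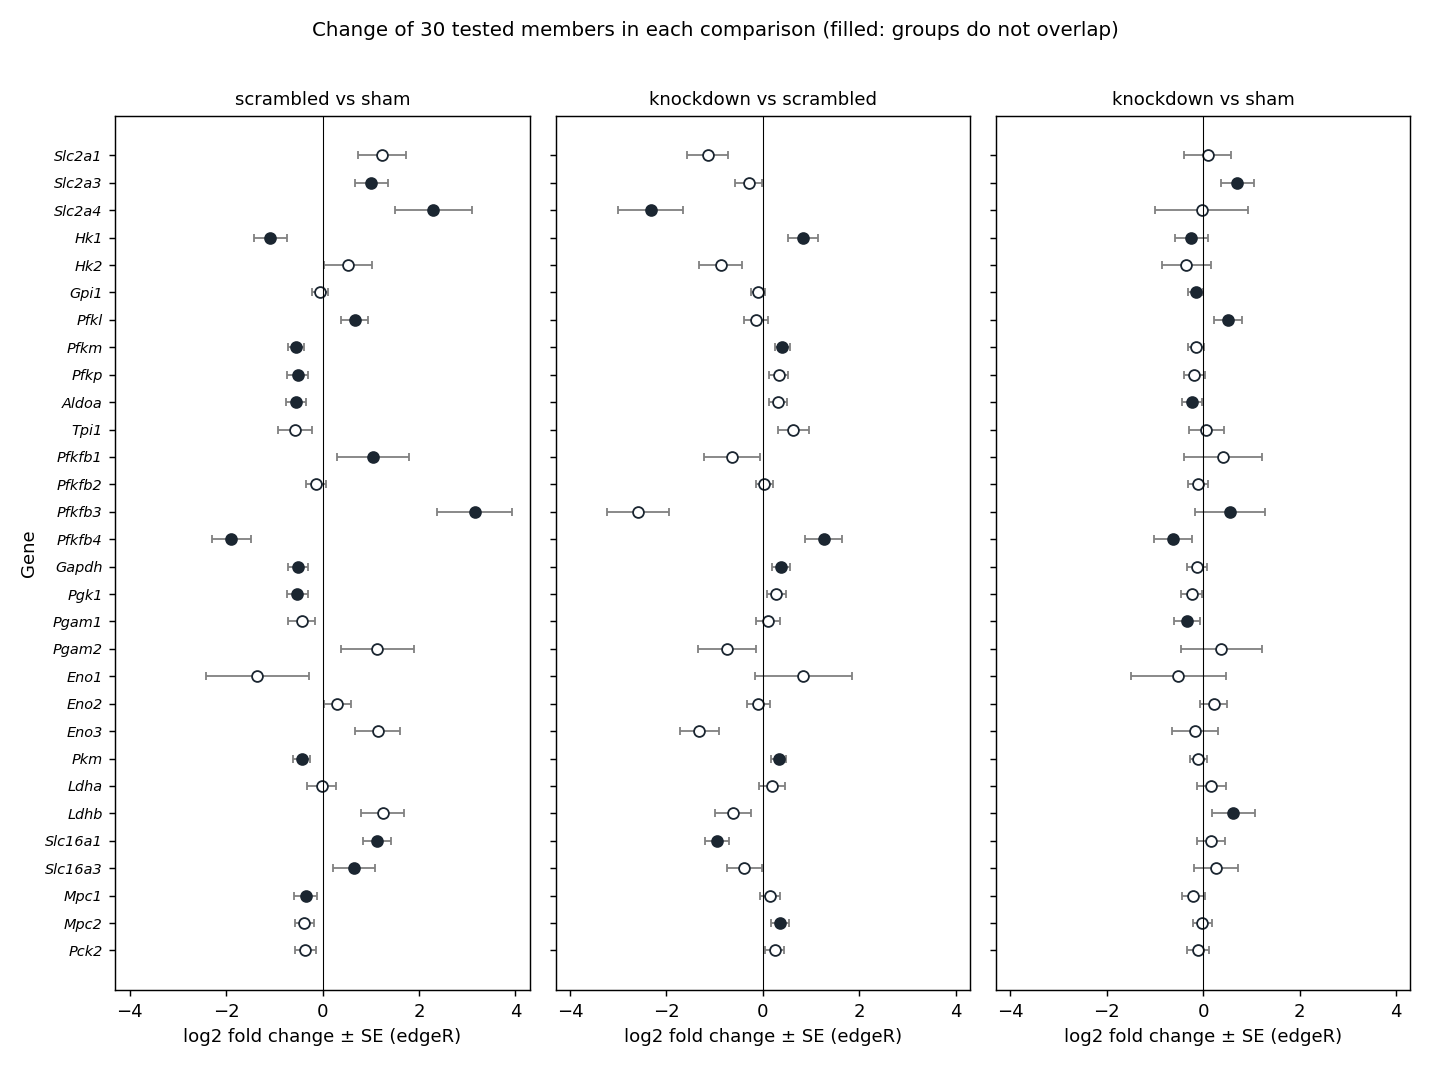
Points are log2 fold changes of 30 tested members with their standard errors, in 1 panel for each comparison (Pck1 lies beyond the axis). Filled points mark members whose groups do not overlap. In the right panel (knockdown against sham) most members lie near 0, while the left and middle panels, which share the scrambled libraries, spread in opposite directions.

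Of the lactate and pyruvate genes, the transporter Slc16a1 and the minor dehydrogenase subunit, Ldhb, were higher in scrambled 1 and 3. The main subunit, Ldha, was not. Slc16a1 (chr3:104638668-104658462) stood at 27.4 and 16.96 CPM in sham 1 and 2, 58.9, 35.5 and 50.3 in scrambled 1, 2 and 3, and 27.9, 21.2 and 25.3 in knockdown 1, 2 and 3. All scrambled libraries were above all sham and knockdown libraries, scrambled 2 included. The fitted log2 change was 1.12 ± 0.29 against sham and -0.96 ± 0.25 for knockdown against scrambled (edgeR adjusted p = 0.073 and 0.0727). Without scrambled 2 the value against sham was 1.32 ± 0.22 (edgeR adjusted p = 0.000524, range 0.000524 to 0.335 over the 18 alternatives). Slc16a3, the exporter typical of hypoxic and glycolytic cells, stayed low, with means of 1.48 ± 0.0477, 2.302 ± 0.502 and 1.802 ± 0.322 CPM in sham, scrambled and knockdown. Slc16a1 made up 92.5% to 96.97% of the summed RPKM of the pair in every library.

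Ldha (chr7:46841475-46855627) stood at 177 and 134 CPM in sham 1 and 2, 154, 212 and 93.1 in scrambled 1, 2 and 3, and 169.6, 183 and 169.8 in knockdown 1, 2 and 3. Scrambled 2 had the highest and scrambled 3 the lowest value of all libraries, and the groups overlapped throughout. In the fit, the log2 fold change was -0.02 ± 0.30 against sham (edgeR adjusted p = 0.969), and its sign turned under several alternatives. Ldhb, the subunit typical of oxidative tissue (chr6:142490249-142507957), stood at 5.25 and 9.37 CPM in sham 1 and 2, 22.2, 8.37 and 21.9 in scrambled 1, 2 and 3, and 10.2, 11.9 and 11.8 in knockdown 1, 2 and 3. All other libraries were again below scrambled 1 and 3, with scrambled 2 inside the sham range. Its log2 fold change was 1.24 ± 0.45 against sham (edgeR adjusted p = 0.122). As a share of the summed RPKM of both subunits, Ldhb made up 5.89 and 12.9% in sham 1 and 2, 23.3, 7.69 and 33.2 in scrambled 1, 2 and 3, and 11.3, 12.1 and 12.7 in knockdown 1, 2 and 3. Mpc1 and Mpc2, the pyruvate carrier, had log2 fold changes of -0.35 ± 0.23 and -0.38 ± 0.20 against sham.

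The promoters of Ldha, Slc16a1 and Slc2a1 (plus strand, RefSeq, GRCm38.p6) are shown because all hold the hypoxia response core while only the transporters were higher in scrambled 1 and 3. Capitals mark the cores:
Ldha, chr7:46845554-46845853: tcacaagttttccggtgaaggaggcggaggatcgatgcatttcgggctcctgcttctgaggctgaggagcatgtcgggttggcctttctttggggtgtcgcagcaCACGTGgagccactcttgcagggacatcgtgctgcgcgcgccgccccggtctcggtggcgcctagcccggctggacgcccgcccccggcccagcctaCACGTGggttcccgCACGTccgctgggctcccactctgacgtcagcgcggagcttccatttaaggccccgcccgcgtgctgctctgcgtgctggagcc
Slc16a1, chr3:104638414-104638713: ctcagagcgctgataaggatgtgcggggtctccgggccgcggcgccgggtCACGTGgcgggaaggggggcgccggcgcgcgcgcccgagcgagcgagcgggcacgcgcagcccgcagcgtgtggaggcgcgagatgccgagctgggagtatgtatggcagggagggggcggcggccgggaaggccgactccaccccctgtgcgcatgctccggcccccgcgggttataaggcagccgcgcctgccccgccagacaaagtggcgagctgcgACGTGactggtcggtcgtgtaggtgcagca
Slc2a1, chr4:119108495-119108794: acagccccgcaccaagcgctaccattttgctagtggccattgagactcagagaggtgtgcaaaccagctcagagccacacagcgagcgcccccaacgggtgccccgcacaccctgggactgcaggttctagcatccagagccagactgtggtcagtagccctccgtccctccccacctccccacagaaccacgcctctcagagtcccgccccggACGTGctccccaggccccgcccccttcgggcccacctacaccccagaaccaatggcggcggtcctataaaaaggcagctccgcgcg
This Ldha promoter holds 5 cores, the most of any member promoter, and its cores form 2 E-boxes and 1 further match. Slc16a1 holds 3, of which 2 form an E-box, and Slc2a1 holds 1, at position -36. A promoter with cores is thus found among members that were higher in scrambled 1 and 3 (Slc2a1, Pfkfb3), lower (Hk1, with 2 cores in 1 of its 2 promoters) and without order (Ldha).

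**Figure D4:**
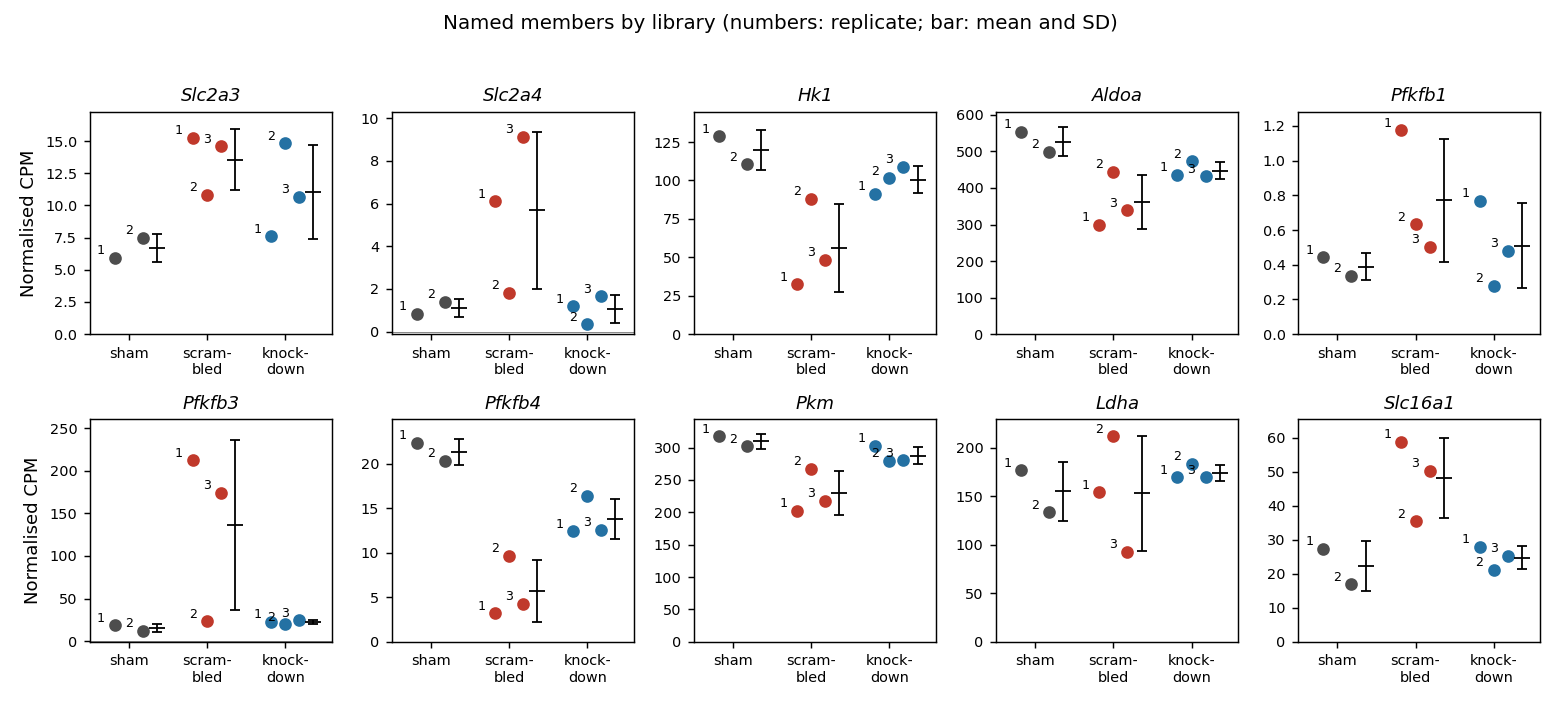
Normalised CPM of 10 members in every library (dots, numbered by replicate) with the group mean and SD (bar), each panel from 0 on its own linear axis. Scrambled 2 lies apart from scrambled 1 and 3 for Pfkfb3 (23.3 against 212 and 174 CPM) and for Hk1, and the knockdown dots lie near sham for Slc16a1 and Hk1 and between the other groups for Pfkfb4.

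Among the gluconeogenic members, Pck1 (the cytosolic phosphoenolpyruvate carboxykinase, typical of liver, kidney and fat; chr2:173153048-173159273) had 0 and 3 reads in sham 1 and 2, 207, 1 and 48 in scrambled 1, 2 and 3, and 0, 2 and 2 in knockdown 1, 2 and 3. Nearly all of its reads came from scrambled 1 and 3. Over pooled reads the ratio of scrambled to sham was 44.2, with a 95% counting interval of 14.97 to 216, which covers counting error only and not the spread between mice. The edgeR adjusted p was 0.0903 against sham and 0.0707 for knockdown against scrambled. Pck1 was highest in scrambled 1, at 8.11 CPM. Of the 7 adipocyte markers, 4 were higher in both scrambled 1 and 3 than in scrambled 2 (Cidec at 0.901, 0 and 1.76 CPM in scrambled 1, 2 and 3, Adipoq at 0.627, 0.507 and 0.882), 2 were at 0 in scrambled 1 and 3 and detected in scrambled 2 (Plin1 and Retn), and Lep was at 0. Their part in the level of Pck1 was not tested. Pck2, the mitochondrial form, had a log2 fold change of -0.35 ± 0.22 against sham. Fbp2, the muscle fructose-1,6-bisphosphatase, had 1 read in sham, 17 in scrambled and 4 in knockdown.

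In knockdown against sham the members lay close together. All 31 adjusted p were 1, and the largest differences whose groups did not overlap were those of Slc2a3 (0.71 ± 0.34 on the log2 scale), Pfkfb4 (-0.63 ± 0.39), Ldhb (0.62 ± 0.45), Pfkfb3 (0.56 ± 0.72) and Pfkl (0.52 ± 0.29). Hk1 and Aldoa were lower in every knockdown than in every sham library, with log2 fold changes of -0.25 ± 0.35 and -0.24 ± 0.20. No member was called under any of the 18 alternatives. That no member was called does not show that the groups are alike. The fit of all 8 libraries takes its spread from the scrambled libraries too. Their median SD of log2 CPM over all genes was 0.45, beside 0.17 in sham and 0.16 in knockdown. With only knockdown and sham in the edgeR fit, 0.765% of all tested genes were called, though none of the 29 members tested there.

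The surrounding pathways were described by lists from general knowledge. Of all tested genes, 1.58% were called in scrambled against sham and 0.0513% in knockdown against scrambled. In scrambled against sham, 50.1% of all tested genes had a positive log2 fold change, and their median was 0.00. Of the 12 pyruvate dehydrogenase genes tested, 1 was called in scrambled against sham, Pdk4, the kinase that shuts pyruvate out of oxidation, which rose by 4.78 ± 0.95 on the log2 scale (edgeR adjusted p = 0.0482). Pdk4 stood at 13.6 and 15.7 CPM in sham 1 and 2, 519.9, 48.01 and 643 in scrambled 1, 2 and 3, and 27.3, 23.4 and 28.7 in knockdown 1, 2 and 3, so that scrambled 2 too was above all sham and knockdown libraries. Of 8 pentose phosphate genes, H6pd, the glucose-6-phosphate dehydrogenase of the endoplasmic reticulum, was called higher (2.29 ± 0.42, edgeR adjusted p = 0.0389), and the other 7 had lower means. Tkt, transketolase of the non-oxidative branch, came nearest among these, at -0.80 ± 0.17 (edgeR adjusted p = 0.0547). None of 21 glycogen and hexosamine genes was called, 16 had lower means in scrambled FAPs and their median log2 fold change was -0.40. None of the 18 tested other isozymes and transporters was called, with a median of -0.14.

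Of 27 tested genes of the hypoxia-inducible factors and their targets, 2 were called higher in scrambled against sham and none lower. The median log2 fold change was 0.48, beside 0.00 over all tested genes, of which 1.58% were called. The list did not share a direction: 20 genes had a positive log2 fold change and 7 a negative one. Among the latter was P4ha2, at -1.56 ± 0.45 (edgeR adjusted p = 0.0883), which was singled out after its values were seen. Adm, the vasodilator peptide adrenomedullin, rose by 3.75 ± 0.41 (edgeR adjusted p = 0.0115) and was the only gene of these lists called in knockdown against scrambled, where it fell by 2.69 ± 0.33 (edgeR adjusted p = 0.0491, range 5.05e-13 to 0.236 over the 18 alternatives). Its levels were 92.04 and 85.7 CPM in sham 1 and 2, 1579, 668 and 1328 in scrambled 1, 2 and 3, and 212, 137 and 203 in knockdown 1, 2 and 3, with scrambled 2 well above sham and knockdown. Bnip3, a mitophagy receptor, rose by 3.48 ± 0.69 (edgeR adjusted p = 0.0482), with a range of 2.9e-07 to 0.4 over the alternatives. Of 22 regulators of glucose uptake and glycolysis, 1 was called, Myc, a transcription factor that drives many glycolytic genes, which rose by 1.70 ± 0.27 (edgeR adjusted p = 0.0264) in scrambled against sham. Myc stood at 191 and 156 CPM in sham 1 and 2, 654, 380.2 and 655 in scrambled 1, 2 and 3, and 300.2, 329.8 and 303 in knockdown 1, 2 and 3. Txnip, an arrestin that lowers glucose uptake through GLUT1, was at 920.3 and 1153 CPM in sham 1 and 2, 8442, 1975 and 8683 in scrambled 1, 2 and 3, and 1465, 1107 and 1573 in knockdown 1, 2 and 3, with a log2 fold change of 2.62 ± 0.58 (edgeR adjusted p = 0.0578). In scrambled against sham, Adm was called in 15, H6pd and Myc in 9, and Bnip3 and Pdk4 in 6 of the 18 alternatives. Leaving out any 1 library other than scrambled 2 ended the calls of H6pd, Myc, Bnip3 and Pdk4, whose adjusted p reached 0.377, 0.247, 0.4 and 0.4, and leaving out either sham library ended that of Adm, whose adjusted p reached 0.189. The levels of all 5 genes in scrambled 2 were above both sham libraries. No gene of these lists was called in knockdown against sham.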

How the data were processed

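The deposited table holds raw counts (whole numbers, 1 row per gene symbol and 1 column for each of the 8 libraries). Per the labels' protocols, libraries were made with the Illumina stranded mRNA kit from RNA with a RIN of 7 or more and read as 59-base pairs. Per the submitters' processing notes reads were handled on mm10 with STAR, Bowtie, R 4.2.1, DESeq2 1.36.0 and bcl2fastq 2.20, whose roles are not stated. The sources used here do not give the counter, annotation or strand setting.

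In R 4.3.3, edgeR 4.0.16 kept 13646 genes (filterByExpr, minimum count 10, minimum total 15), scaled them by TMM and fitted 3 group means over all 8 libraries with the robust quasi-likelihood method. Tests were two-sided, with Benjamini-Hochberg adjustment over all tested genes and a threshold of 0.05. Errors of fold changes are standard errors (log2 change over the square root of F), and errors of levels are SDs. Normalised CPM are CPM after TMM scaling, log2 CPM used a prior count of 2, and RPKM divide CPM by exon length from GENCODE M21 (GRCm38, as mm10), where all 33 members were found. Groups do not overlap when every library of one is above every library of the other. Counting intervals cover reads, not molecules. All libraries and columns were used; the deepest had 28340450 and the shallowest 15647436 counts. The reported fit has no replicate block.

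The members and lists were chosen with earlier results of these data known. Members given in every library are, by rule, those called in any comparison, those with groups that do not overlap and a log2 fold change of at least 1 in size, and the 3 with the highest mean RPKM; genes of other lists are named when called, or among the 3 smallest p of their list. Alternatives were DESeq2 1.42.0, limma-voom 3.58.1, the legacy edgeR method, RLE or no scaling, no filter, only the groups compared, a replicate block, a prior count of 2 and leaving out each library. Leaving out scrambled 1 and 3 together was added after seeing the data. The edgeR fit was tested on simulated data.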

Additional observations from a re-analysis of the deposited data

How the results depend on the processing

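In scrambled against sham, where no member was called, DESeq2 called 6 members higher and 3 lower, limma-voom 1 lower, no filter on low counts 1 lower, and the fit without scrambled 1 and 3, chosen after seeing the data, 1 higher and 1 lower. Leaving out 1 library at a time gave 0 to 8 higher and 0 to 13 lower, the upper ends without scrambled 2. In knockdown against scrambled, DESeq2 called 1 higher and 5 lower, and leaving out 1 library gave 0 to 10 higher and 0 to 8 lower, again by scrambled 2. In knockdown against sham the count was 0 under each of the 18 alternatives. Scaling by library size alone moved the median of all genes to -0.09 in scrambled against sham and 0.11 in knockdown against scrambled, where it turned the sign of Gpi1 and Eno2. Same-numbered libraries correlated at -0.064 to 0.172 in their differences from the group means. Pairs with unlike numbers were not compared, so these values cannot decide whether the numbers pair mice. The replicate block called 0 members in each comparison.

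Among the single values of named members, 500 kept their direction and side of the threshold, 28 passed it and 11 turned sign; the cause was not tested. Ldha against sham was 0.085 with the replicate block, 0.45 without scrambled 1 and 3, and -0.31 to 0.24 without 1 library. For knockdown against scrambled Ldha was -0.29 without scrambled 1 and 3 and -0.076 to 0.48 without 1 library, and Slc2a3 was 0.016 without scrambled 1 and 3. For knockdown against sham, without 1 library, Ldha ran from -0.024 to 0.38, Slc2a4 from -0.54 to 0.41 and Slc16a1 from -0.14 to 0.55. Low reads limit Slc2a4, Pfkfb1, Pgam2, Pck1, Aldoc and Fbp2, and 2 sham mice limit each comparison with sham.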
